A study of Homo sapiens with 6 samples.

Results

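The genes described here are the enzymes of fatty acid synthesis, elongation and desaturation in HCCLM3 cells, a human hepatocellular carcinoma line, with and without lentiviral overexpression of *PON1*. They are 10 of the 20381 genes in the deposited count table and were taken by symbol, namely *ACLY*, *ACSS2*, *ACACA*, *FASN*, *SCD*, *ELOVL5*, *ELOVL6*, *FADS1*, *FADS2* and *LPIN1*. All 10 passed the filter on low counts, which left 11958 genes for testing. RNA-seq was carried out on 3 libraries of cells stably overexpressing *PON1* (PON1-OE) and 3 of the negative control (NC), each made from poly(A) RNA. In PON1-OE a lentivirus carried the full *PON1* coding sequence, NC received the empty vector according to the series design, and the cells were selected with puromycin. The sample labels name a stable overexpression, while the series design describes cells kept in 15% serum and lysed 24 h after they were transfected. The sources do not say whether either line was a single clone, and n counts libraries, so errors and p-values measure only how these libraries vary, which may be technical.

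Total estimated counts ranged from 15706672 to 17948383 per library. *PON1*, which encodes a lactonase carried on high-density lipoprotein, had counts of 0, 2 and 3 in the NC libraries, while those of PON1-OE held 155, 181 and 167, as the labels state. Of 18 hepatocyte markers 12 passed the filter. The keratin genes *KRT8* (35483 to 42426 counts) and *KRT18* (24078 to 26723 counts) and the liver transcription factor gene *HNF4A* (1223 to 1492 counts) were well expressed. *ALB*, which encodes albumin, had only 4 to 13 counts and *AFP* 4 to 18 counts per library, and *APOA1* did not exceed 5 counts. The leukocyte marker *PTPRC* was at 0 in every library. Of 7 immune markers 2 passed the filter, *CD68* (3514 to 4097 counts) and *CD79A* (8 to 17 counts). Of 9 stromal and endothelial markers 3 passed, *PECAM1* (216 to 249 counts), *LUM* (191 to 264 counts) and *DCN* (58 to 107 counts).

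Cells build fatty acids from cytosolic acetyl-CoA. ACLY makes it from citrate and ACSS2 from acetate, ACACA carboxylates it to malonyl-CoA, and FASN, a single large protein, joins these units into palmitate. ELOVL6 and ELOVL5 lengthen the chain, SCD, FADS1 and FADS2 put double bonds into it, and LPIN1 dephosphorylates phosphatidate on the way to triglycerides. Transcription of these genes is known to be driven mainly by SREBP1, the product of *SREBF1*, in concert with the factor NF-Y, which binds CCAAT boxes. The related SREBP2, from *SREBF2*, acts mainly on cholesterol synthesis and uptake, here called the sterol arm.

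Promoter sequences were taken from RefSeq (GRCh38.p14), which gave at least 1 start site for 9 of the 10 enzymes. The table used here has no entry for *FASN*. Shown are the 250 bases before the start site of *SCD*, which had the highest level among the enzymes, of *FADS2*, which had their largest log2FC (the second of its 2 start sites listed), and of *MSMO1*, which had the largest log2FC of the sterol arm. They lie at chr10:100346983-100347232 on the plus strand, at chr11:61816154-61816403 on the plus strand and at chr4:165327419-165327668 on the plus strand. Capitals mark CCAAT on either strand, so that it reads ATTGG where it lies on the other strand.
SCD: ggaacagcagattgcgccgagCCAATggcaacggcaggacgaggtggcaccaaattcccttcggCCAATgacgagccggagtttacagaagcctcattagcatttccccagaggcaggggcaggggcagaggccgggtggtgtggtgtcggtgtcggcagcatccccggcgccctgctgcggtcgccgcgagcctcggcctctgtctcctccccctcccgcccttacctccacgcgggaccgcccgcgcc
FADS2: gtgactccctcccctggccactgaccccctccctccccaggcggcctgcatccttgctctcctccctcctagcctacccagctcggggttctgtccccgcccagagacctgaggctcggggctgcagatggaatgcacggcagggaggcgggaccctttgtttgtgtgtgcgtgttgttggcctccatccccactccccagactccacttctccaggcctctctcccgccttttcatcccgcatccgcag
MSMO1: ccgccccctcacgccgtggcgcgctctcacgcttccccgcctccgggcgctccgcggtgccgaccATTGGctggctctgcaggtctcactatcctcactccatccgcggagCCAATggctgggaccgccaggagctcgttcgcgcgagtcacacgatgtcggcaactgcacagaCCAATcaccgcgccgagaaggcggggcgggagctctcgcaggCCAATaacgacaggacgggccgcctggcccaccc

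The *SCD* window held 2 CCAAT boxes, the *FADS2* window 0 and the *MSMO1* window 4. A CCAAT box was found in 7 of the 16 windows of the 9 enzymes, which belong to *ACLY*, *ACSS2*, *ACACA*, *SCD* and *ELOVL5*. Windows of 1 gene can overlap, and the 2 of *ACLY* hold the same boxes, so windows are not independent. In the sterol arm 16 of the 23 genes had windows, and a CCAAT box was found in 16 of these 21 windows. Over all 35116 promoters of the same length it was found in 32.0%. Windows on 1 chromosome were left out for both lists but not for all promoters, so the shares come from unlike sets. The E-box CACGTG was in 1 enzyme window, that of *ELOVL5*, and in 6.34% of all promoters. It was in 2 of the 21 windows of the sterol arm, which overlap and belong to 1 gene. TCACNCCAC, a form of the sterol regulatory element, was in 0 enzyme windows and in 0 windows of the sterol arm, against 0.883% of all promoters. These motifs were searched on both strands and do not overlap one another in the sequences shown, and a match describes letters only.

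The enzymes showed little difference between PON1-OE and NC. With edgeR (quasi-likelihood test, Benjamini-Hochberg adjusted p under 0.05) 0 of the 10 enzymes were called, against 0.677% of the genes tested (81 of 11958), of which 0.502% were higher and 0.176% lower. A change over 1.5-fold in addition was found for 0 enzymes and 0.0502% of all genes. At an unadjusted p under 0.05, 3 of the 10 were higher (*FASN*, *ACSS2* and *FADS2*) and 0 lower, where 5.91% of all genes were higher and 5.17% lower, 11.1% together. The 3 became 1 without NC replicate 2 (*LPIN1*). Leaving out NC replicate 3, or either of PON1-OE replicates 1 and 2, also left 1 (*FASN* each time). The median log2FC of the 10 was 0.07, against −0.0025 for the 11958 genes. A log2FC above 0 was found for 9 of the 10, against 49% of all genes. DESeq2 called 0 of the 10 at an adjusted p under 0.05 (*LPIN1* and *ELOVL6* received none). It called 2.62% of the 4695 genes that received an adjusted p, and 2.04% as higher. At an unadjusted p under 0.05 DESeq2 had 1 enzyme as higher (*FASN*), against 3.16% of 15540 genes. These include genes that the filter before edgeR removed. limma-voom called 0 at an adjusted p under 0.05, against 0.544% of genes and 0.418% as higher, and had 3 as higher at an unadjusted p under 0.05, against 5.85%.

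The size of change that could have been called sets what these libraries can show. At the unadjusted p of the last gene called, 0.000339, the smallest log2FC that would have passed lay between 0.17 for *FADS1* and 0.38 for *ELOVL6*, which are differences of 12.4% and 30.1%. The 95% interval of the log2FC included 0 for 7 of the 10 enzymes. Its upper bound was highest for *LPIN1* (0.34) and lowest for *ELOVL5* (0.08).

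**Figure D1:**
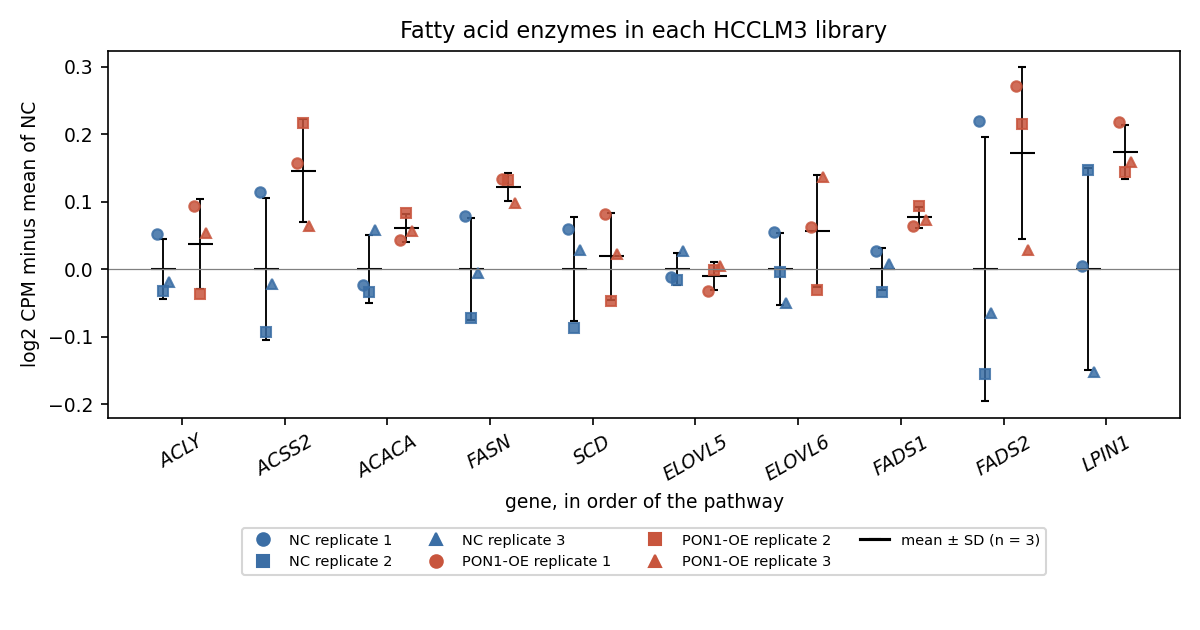
Level of each of the 10 enzymes in each library, as log2 CPM minus the mean of the 3 NC libraries, with blue points for NC, red points for PON1-OE, 1 symbol shape per replicate number and black bars for the mean ± SD (n = 3). The PON1-OE libraries lie above all NC libraries for *FASN* and *FADS1*, and the groups overlap for the other 8.

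The enzymes that supply acetyl-CoA are encoded by *ACLY* and *ACSS2*. Levels are given as CPM, read counts scaled to library size after TMM normalization. *ACLY* (ENSG00000131473, minus strand of chromosome 17 from 41866908 to 41930542) was at 247, 233 and 235 CPM in NC replicates 1 to 3, and the PON1-OE replicates 1 to 3 were at 254, 232 and 247 CPM. The groups overlapped, with PON1-OE replicate 2 as the lowest of the 6 libraries. The log2FC was 0.04 (standard error 0.041, 95% interval −0.048 to 0.12), with an adjusted p of 0.809. *ACSS2* (ENSG00000131069, plus strand of chromosome 20 from 34872146 to 34927962) was at 46.75, 40.5 and 42.5 CPM in the NC libraries and at 48.2, 50.15 and 45.1 in those of PON1-OE. NC replicate 1 lay above PON1-OE replicate 3, and the other libraries of the groups did not cross. The log2FC of *ACSS2* was 0.15 (standard error 0.068, 95% interval 0.0055 to 0.29), 10.7% higher in PON1-OE, with an unadjusted p of 0.0425 and an adjusted p of 0.431 in edgeR's quasi-likelihood test.

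The chain is made by ACACA and FASN. *ACACA* (ENSG00000278540, minus strand of chromosome 17 from 37084988 to 37406818), the rate-limiting carboxylase, was at 53.8, 53.5 and 57.0 CPM in the NC libraries and at 56.4, 58.0 and 56.95 in those of PON1-OE. The groups overlapped through NC replicate 3, and the log2FC was 0.06 (standard error 0.056, adjusted p = 0.761). *FASN* (ENSG00000169710, minus strand of chromosome 17 from 82078333 to 82098332) was at 342, 308 and 323 CPM in the NC libraries and at 356, 355 and 347 in those of PON1-OE. All 3 PON1-OE libraries lay above the NC libraries, with NC replicate 1 the nearest to them. The mean of NC was 324 ± 17.1 CPM and that of PON1-OE 352.5 ± 5.05 CPM (SD, n = 3 per group), 8.71% higher in PON1-OE with a 95% interval of 2.69% to 15.1%.

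*FASN* had the lowest p among the 10 enzymes. Its log2FC was 0.12 (standard error 0.040), with an unadjusted p of 0.00618 and an adjusted p of 0.217 from edgeR's quasi-likelihood test. The two-sided exact permutation test over libraries gave p = 0.1, the smallest p that 3 against 3 libraries allow. Over 14 other settings its log2FC stayed between 0.08 and 0.16 and its adjusted p between 0.0881, with offsets for GC content and transcript length, and 0.536, without NC replicate 3. The unadjusted p was above 0.05 in 1 of these settings, without NC replicate 2 (0.0512).

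Of the desaturases, *SCD* (ENSG00000099194, plus strand of chromosome 10 from 100347124 to 100364834) encodes the enzyme that turns stearate into oleate. It was at 496, 449 and 486 CPM in the NC libraries and at 504, 461 and 484 in those of PON1-OE. The groups overlapped over most of their range, and in each group replicate 2 was the lowest. The log2FC was 0.02 (standard error 0.041, 95% interval −0.067 to 0.11, adjusted p = 0.912), and it was −0.023 without NC replicate 2 and −0.0094 without PON1-OE replicate 1, so that it has no fixed sign.

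*FADS1* and *FADS2* encode the delta-5 and delta-6 desaturases of polyunsaturated fatty acids and lie on opposite strands of chromosome 11. *FADS1* (ENSG00000149485, 61799625 to 61829318, minus strand) was at 177.5, 170.2 and 175 CPM in the NC libraries and at 182, 186 and 183 in those of PON1-OE. The groups did not overlap, the spread within them was small (coefficient of variation 2.16% in NC and 1.08% in PON1-OE), and the log2FC was 0.08 (standard error 0.039, 95% interval −0.0048 to 0.16, adjusted p = 0.486). Groups that did not overlap with PON1-OE higher were found for 2 of the 10 enzymes, *FASN* and *FADS1*, and for 8.32% of all genes tested. With PON1-OE lower this held for 0 enzymes and 7.74% of all genes.

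*FADS2* (ENSG00000134824, 61792980 to 61867354, plus strand) was at 80.0, 61.7 and 65.7 CPM in the NC libraries and at 82.9, 79.7 and 70.0 in those of PON1-OE. It had the widest spread of the 10, with a coefficient of variation of 13.9% in NC, and NC replicate 1 lay among the PON1-OE libraries. The log2FC was 0.17 (standard error 0.077, 95% interval 0.0076 to 0.33), 12.4% higher in PON1-OE, with an unadjusted p of 0.0410 and an adjusted p of 0.428. It was 0.29 without NC replicate 1 and 0.09 without NC replicate 2, with unadjusted p of 0.000790 and 0.244. In GENCODE v29 the exons of *FADS1* and *FADS2* share 490 bases on opposite strands, which are 4.79% and 4.44% of their exonic bases. The labels do not state whether counting used strand, so it is not known whether reads in these bases were told apart.

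The elongases did not pass the test either. *ELOVL5* (ENSG00000012660, minus strand of chromosome 6 from 53267398 to 53349179), which lengthens polyunsaturated chains, was at 108.3, 108.0 and 111 CPM in the NC libraries and at 107, 109.0 and 109.5 in those of PON1-OE. The groups overlapped, and the log2FC of −0.01 (standard error 0.044, 95% interval −0.10 to 0.08, adjusted p = 0.959) was the only one of the 10 below 0. It was above 0 in 3 of 14 other settings. *ELOVL6* (ENSG00000170522, minus strand of chromosome 4 from 110045846 to 110199199), which extends palmitate to stearate, was at 17.99, 17.25 and 16.7 CPM in the NC libraries and at 18.1, 16.95 and 19.0 in those of PON1-OE. The groups overlapped, and the log2FC was 0.06 (standard error 0.088, 95% interval −0.13 to 0.24, adjusted p = 0.871).

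*LPIN1* (ENSG00000134324, plus strand of chromosome 2 from 11677595 to 11827409) was at 22.8, 25.2 and 20.5 CPM in the NC libraries and at 26.5, 25.1 and 25.4 in those of PON1-OE. NC replicate 2 lay within the PON1-OE libraries, and the groups differed through the other NC libraries. The log2FC was 0.17 (standard error 0.084, 95% interval −0.0069 to 0.34), with an unadjusted p of 0.0588 and an adjusted p of 0.471. It was 0.25 without NC replicate 2 and 0.10 without NC replicate 3.

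NC replicate 1 was the highest NC library for 7 of the 10 enzymes, and for 6 it was at or above the lowest PON1-OE library. Without it the median log2FC of the 10 rose from 0.07 to 0.09, and 0 of the 10 were called. Together the 10 genes held 0.159%, 0.148% and 0.1535% of the counts of the NC libraries, and 0.164%, 0.156% and 0.158% of the counts of the PON1-OE libraries. The groups overlapped through NC replicate 1.

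With merged exons as the length, the order of the levels per length was the same in both groups. In CPM per kilobase of exon, with the exons of all GENCODE v29 transcripts of a gene merged, the level of *SCD* was 88.9 ± 4.67 in NC (SD, n = 3) and that of *ACLY* 45.7 ± 1.44. *FASN* (34.6 ± 1.82 in NC), *ELOVL5* (28.6 ± 0.474) and *FADS1* (17.0 ± 0.367) came next. *ACSS2* (8.03 ± 0.595), *FADS2* (6.27 ± 0.873) and *ACACA* (4.21 ± 0.149) were lower. *ELOVL6* (2.37 ± 0.0876) and *LPIN1* (1.92 ± 0.1999) were the lowest. The libraries of neighbors in this order did not overlap in NC or in PON1-OE. With the length of the longest transcript in place of merged exons *FADS1* moved from rank 5 to rank 3 in NC and to rank 4 in PON1-OE. *FASN* was then at rank 4 in NC and at rank 3 in PON1-OE, so the order differed between the groups. *LPIN1* stood above *ELOVL6*, and the places of these genes rest on the length used.

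**Figure D2:**
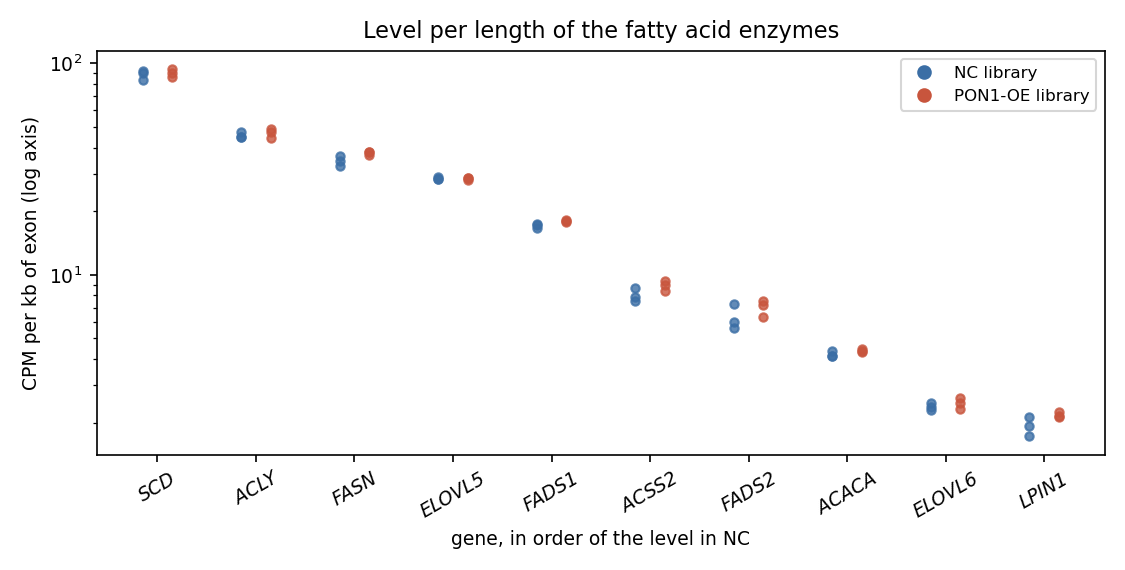
Level of each of the 10 enzymes in CPM per kilobase of merged exons on a log axis, with 1 point per library, blue for NC and red for PON1-OE, ordered by the level in NC. The levels run from about 89 for *SCD* to about 2 for *LPIN1*, and the distance between genes is far larger than that between groups.

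Ratios of 2 enzymes within a library do not depend on scaling. The log2 ratio of *SCD* to *FASN* was 0.54, 0.54 and 0.59 in the NC libraries, and the PON1-OE libraries were at 0.50, 0.38 and 0.48, so the groups did not overlap. The difference of −0.10 had p = 0.1 in a two-sided exact permutation test, the smallest p possible, and an adjusted p of 0.4 over the 4 pairs. The differences were −0.095 for *FADS1* to *FADS2* (exact permutation p = 0.4), −0.067 for *ELOVL5* to *ELOVL6* (exact permutation p = 0.4) and 0.11 for *ACSS2* to *ACLY* (exact permutation p = 0.2), each with overlapping groups and an adjusted p of 0.4. Single libraries moved these differences by more than 1.5 times. That of *FADS1* to *FADS2* was −0.19 without NC replicate 1 and −0.034 without NC replicate 2, and that of *ELOVL5* to *ELOVL6* was −0.11 without PON1-OE replicate 2 and −0.028 without NC replicate 3. For *ACSS2* to *ACLY* it was 0.037 without PON1-OE replicate 2 but 0.16 when PON1-OE replicate 3 was left out, and for *SCD* to *FASN* −0.064 without PON1-OE replicate 2.

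In the sterol arm, set beside the enzymes, 9 of the 23 genes rose in PON1-OE and 0 fell by edgeR's test (adjusted p under 0.05), where 0.502% of all genes tested rose. At an unadjusted p under 0.05, 17 of the 23 were higher, against 5.91% of all genes tested. The median log2FC was 0.24 for the sterol arm and 0.07 for the fatty acid enzymes. This list was written with the rise of sterol genes in these libraries already known, so its count is no independent evidence, and the difference between the lists was not tested. The count was 2 without NC replicate 3, 3 without PON1-OE replicate 1, 4 without PON1-OE replicate 3 and 5 without NC replicate 2.

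*MSMO1*, the sterol C4-methyl oxidase, was at 127, 117 and 105 CPM in the NC libraries and at 159, 153 and 153 in those of PON1-OE, a log2FC of 0.41 (standard error 0.054, adjusted p = 0.000415). It kept an adjusted p under 0.05 in all 14 other settings. *HMGCS1* (log2FC 0.33, adjusted p = 0.0368), *DHCR7* (0.31, adjusted p = 0.0277) and *CYP51A1* (0.27, adjusted p = 0.0244), enzymes of cholesterol synthesis, also rose in edgeR's test. They kept an adjusted p under 0.05 in 9, 10 and 10 of the 14 other settings. Each missed the adjusted threshold without NC replicate 3 and without PON1-OE replicate 1, among other settings.

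The intervals of the arms can be set side by side. *MSMO1*, with the largest log2FC of the sterol arm, sets the arms furthest apart. Of the 10 enzymes 8 had an upper bound of the 95% interval below the lower bound of *MSMO1* (0.30), and 2, *FADS2* and *LPIN1*, did not. The lower bounds of *HMGCS1* (0.18), *DHCR7* (0.18) and *CYP51A1* (0.15) were smaller. The upper bounds of *FASN* (0.20), *ELOVL6* (0.24) and *ACSS2* (0.29) lay above them as well. Those of *ACACA* (0.177) and *FADS1* (0.159) lay above the lower bound of *CYP51A1* (0.152) alone. The number of enzymes with a log2FC above the median of the sterol arm was 0, and 18 of the 23 sterol genes had a log2FC above that of *FADS2*. The other 5 sterol genes lay within the range of the enzymes. In each library, the median over the enzymes of log2 CPM minus the NC mean was 0.05, −0.034 and −0.013 for the NC libraries, against 0.09, 0.09 and 0.06 for those of PON1-OE. The median over the sterol arm was 0.11, −0.053 and −0.054 for the NC libraries, against 0.30, 0.23 and 0.24 for those of PON1-OE. In both lists NC replicate 1 was the NC library nearest to PON1-OE.

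**Figure D3:**
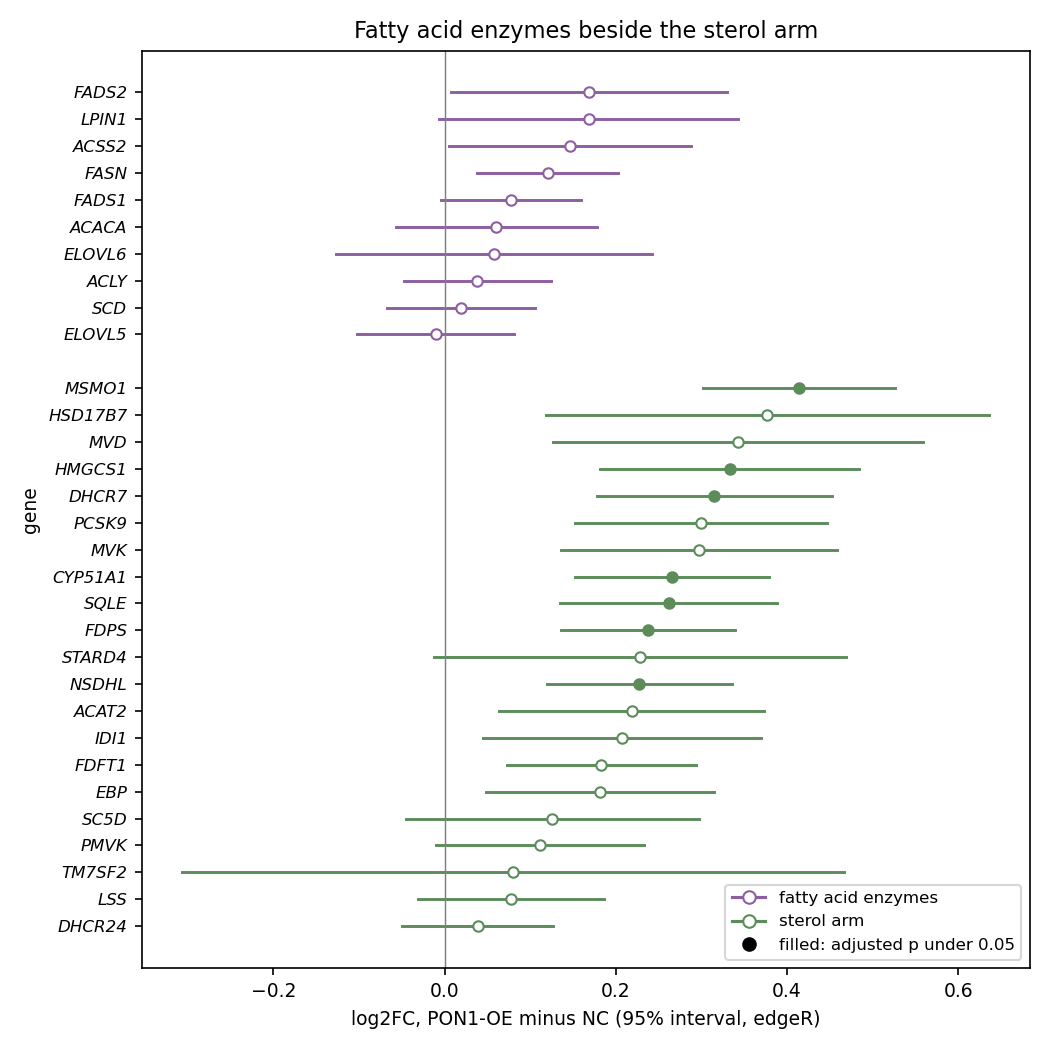
log2FC of PON1-OE minus NC with its 95% interval from edgeR for the 10 fatty acid enzymes (purple) and 21 of the 23 sterol arm genes (green), with filled points for an adjusted p under 0.05. The enzymes lie between −0.01 and 0.17 with 0 filled points, and the sterol genes shown between 0.04 and 0.41 with 7 filled points.

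Of 15 genes that regulate SREBP activity or share lipogenic control with it, 0 were called at an adjusted p under 0.05. At an unadjusted p under 0.05, 2 were higher and 2 lower, against 5.91% and 5.17% of all genes tested. *SREBF1* was at 72.5, 61.2 and 68.1 CPM in the NC libraries and at 60.2, 63.5 and 56.4 in those of PON1-OE. The groups overlapped through NC replicate 2, and the log2FC was −0.16 (standard error 0.065, 95% interval −0.30 to −0.028) with an unadjusted p of 0.0205 and an adjusted p of 0.345. It was −0.11 without NC replicate 1 (unadjusted p 0.153) and −0.12 without PON1-OE replicate 3 (unadjusted p 0.111), and the unadjusted p was also above 0.05 without NC replicate 3 (0.0587). *SREBF2* was at 127, 120.0 and 124 CPM in the NC libraries and at 140.1, 131 and 129.9 in those of PON1-OE, without overlap, a log2FC of 0.11 (standard error 0.045, unadjusted p = 0.0227, adjusted p = 0.358 from edgeR's test).

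*INSIG1*, whose product retains the SREBP escort protein SCAP in the endoplasmic reticulum and which is itself an SREBP target, was at 70.3, 53.4 and 58.2 CPM in the NC libraries and at 80.1, 73.8 and 67.4 in those of PON1-OE. NC replicate 1 lay above PON1-OE replicate 3, and the log2FC was 0.29 (standard error 0.079) with an unadjusted p of 0.00170 and an adjusted p of 0.130. It passed the adjusted threshold without the filter on low counts (adjusted p = 0.00397) and without NC replicate 1 (adjusted p = 0.0215). *SCAP* (log2FC 0.05, adjusted p = 0.790) and *INSIG2* (log2FC −0.064, adjusted p = 0.828) had intervals that included 0.

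In the neighboring branches of fatty acid metabolism 0 genes were called at an adjusted p under 0.05 in edgeR's test. Of 24 further lipogenic genes, such as other elongases and the enzymes that supply NADPH, 18 were tested, with a median log2FC of 0.06. At an unadjusted p under 0.05, 2 were higher and 1 lower, against 5.91% and 5.17% of all genes tested. The lowest p there was that of *HACD2*, a dehydratase of the elongation cycle, at 78.0, 72.5 and 78.9 CPM in the NC libraries and at 68.7, 67.8 and 64.5 in those of PON1-OE, a log2FC of −0.19 (standard error 0.054, adjusted p = 0.145). The elongase gene *ELOVL2* and the desaturase gene *FADS6* were at 0 counts in every library. *SCD5*, the other human stearoyl-CoA desaturase gene, had 6 to 11 counts.

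Mitochondrial fatty acid synthesis (9 of 9 tested) and glycerolipid assembly (18 of 22 tested) had medians of 0.06 and 0.01. In either list 0 genes had an unadjusted p under 0.05, against 11.1% of all genes tested. The lowest p in each was that of *HSD17B8* (6 to 8 counts in NC and 10 to 12 counts in PON1-OE, adjusted p = 0.586) and *LPIN3*, a paralog of *LPIN1* (log2FC 0.33, standard error 0.16, adjusted p = 0.475). Of 26 fatty acid oxidation genes 24 were tested, with a median log2FC of 0.01. At an unadjusted p under 0.05, 1 was higher and 2 lower, against 5.91% and 5.17% of all genes tested. *PPARA*, the nuclear receptor that drives fatty acid oxidation, was at 26.0, 22.9 and 25.3 CPM in the NC libraries and at 18.9, 22.0 and 21.2 in those of PON1-OE, a log2FC of −0.26 (standard error 0.085, adjusted p = 0.225).

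The markers of other cell types did not move past the adjusted threshold. Of 7 immune markers 2 were tested, and *CD68*, a lysosomal protein gene, had the lower p (log2FC 0.13, adjusted p = 0.252). Of 9 stromal and endothelial markers 3 were tested, with the lowest p for *PECAM1* (log2FC 0.205, adjusted p = 0.452). Among the hepatocyte markers *APOB* had the lowest p (log2FC −0.36, adjusted p = 0.443). In each of these lists 0 genes were called by edgeR, with 1, 0 and 2 at an unadjusted p under 0.05, against 11.1% of all genes tested.

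**Figure D4:**
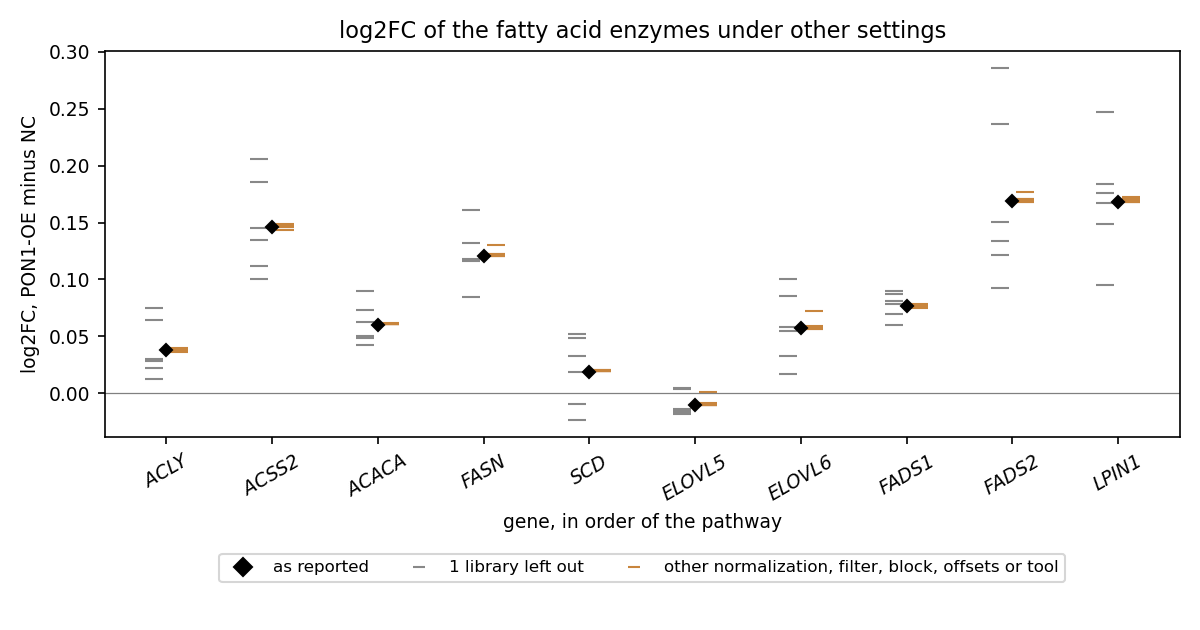
log2FC of PON1-OE minus NC for each of the 10 enzymes as reported (black diamonds), with 1 library left out (grey bars) and with another normalization, filter, block, offset or tool (orange bars). Leaving out a library moved the values most, from 0.09 to 0.29 for *FADS2*, and *SCD* and *ELOVL5* lie on both sides of 0.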

How the data were processed

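RNA-seq libraries of HCCLM3 cells, 3 PON1-OE and 3 NC, were analyzed from 1 table of estimated counts per gene that the authors deposited without normalization (10.5% of the values were not whole). The submitters' processing notes name Bowtie2 2.2.8, HISAT2, StringTie 1.3.1 and DESeq2. The genome build and annotation are not given in the sources used here. Coordinates, exons, GC content and lengths are from GENCODE v29 (GRCh38), which holds 20126 of the 20381 identifiers.

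Estimated counts were rounded, and edgeR 4.0.16 was run in R 4.3.3 (filterByExpr, TMM, glmQLFit, glmQLFTest), with the Benjamini-Hochberg adjustment taken over all 11958 genes tested. The call was an adjusted p under 0.05 with no fold threshold. DESeq2 1.42.0 and limma 3.58.1 (voom) were alternatives, as were RLE size factors, other filters, unrounded counts, the replicate number as a block, GC and length offsets from splines with 5 degrees of freedom, single libraries left out, a fold threshold of 1.5 and unadjusted p. The fits were tested on simulated counts. The limit set by a count of 0, taken as 3 counts, was 0.166 to 0.192 CPM and covers counting error only. Pairs of libraries of a group differed by more than sampling noise.

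The enzymes and the gene lists were chosen with earlier results of these data known. Genes named are the 10 enzymes, *PON1*, *SREBF1*, *SREBF2*, *SCAP*, *INSIG1*, *INSIG2*, up to 6 called genes per list and direction by the largest log2FC, and the gene with the lowest p of each list with no call. Of the sterol arm genes 2 are counted but not reported here by themselves. *ELOVL2*, *FADS6*, *SCD5* and the cell markers given by counts alone were chosen after their values were seen. Nothing was read from columns other than the 6 of counts, symbols and identifiers.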

Additional observations from a re-analysis of the deposited data

How the results depend on the processing

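Over 15 alternatives with an adjusted p, 0 of the 10 enzymes were called, and at an unadjusted p under 0.05 the count was 3, with 1 to 3 without single libraries, 1 with DESeq2, 2 with the replicate block and 4 with GC and length offsets. For 8 of the 10 the log2FC kept its sign in every setting. That of *SCD* became −0.023 without NC replicate 2 and −0.0094 without PON1-OE replicate 1 (range without single libraries −0.023 to 0.0525). That of *ELOVL5* became 0.00079 with GC and length offsets, 0.0035 without NC replicate 3 and 0.0047 without PON1-OE replicate 1 (range without single libraries −0.018 to 0.0047). The cause was not tested. The 9 calls in the sterol arm became 2 to 9 without single libraries, 0 with a fold threshold of 1.5 and 17 at an unadjusted p under 0.05. The SREBP regulation list had 1 call without the filter on low counts, 0 to 1 without single libraries and 4 genes at an unadjusted p under 0.05. At that p the further lipogenic genes counted 3, fatty acid oxidation 3, hepatocyte markers 2 and immune markers 1, against 11.1% of all genes tested. Over all genes the 81 calls became 177 without the filter, 123 with DESeq2, 40 with the replicate block, 6 with a fold threshold of 1.5 and 11 to 103 without single libraries.

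Replicate numbers are shared by the groups. Deviations from the group means of same-numbered libraries correlated at 0.0097, −0.013 and 0.036, under 0.1 for all 3 pairs, so the numbers were not taken to pair the libraries. With the replicate number as a block 0 enzymes and 7 sterol arm genes were called, and the block with GC and length offsets was not run for that reason. The log2FC of *PON1* stayed between 6.13 and 7.32. The enzyme with the fewest counts, *ELOVL6* (271 to 312 per library), also needed the largest log2FC to be called (0.38), and the parts of depth and of the spread between libraries in these limits were not tested.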
